A study of Arabidopsis thaliana with 12 samples.

Results

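Loss of the Polycomb gene CLF was followed in Arabidopsis leaves that already lacked normal TRB4 and TRB5 function. The 6 libraries described, of 12 in the series, were the 3 trb45 clf29 libraries and the 3 trb45 libraries, chosen by the genotype in their labels and their columns in the count table. trb45 plants carried mutations in TRB4 and TRB5 (the line named trb45-1, 1 line only), and trb45 clf29 plants carried these mutations and the clf29 allele. All plants were untreated, grew on soil in long days, and gave mature leaves at day 21 for stranded polyA RNA libraries. WT (Col-0) and clf29 plants, 3 libraries each, served to compare the same CLF loss in plants with intact TRB4 and TRB5. The count column of 1 trb45 clf29 library carries no replicate number, although the labels number all 3, and that library is called unnumbered below. The labels do not say whether replicates came from separate plants or pools, so p-values measure only the spread between these samples.

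CLF is an enzyme subunit of PRC2, a Polycomb complex that places the repressive mark H3K27me3 on developmental genes. In leaves, loss of CLF is known for curled leaves, early flowering and expression of floral genes such as AG and SEP3. TRB proteins carry a Myb-like domain that binds telomeric repeats and the related telobox in promoters, and several of them have been tied to PRC2.

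CLF itself had 15.1, 12.6 and 13.7 CPM (counts scaled to a common library total with TMM factors) in trb45 replicates 1 to 3. It had 0.0997, 0.154 and 0.196 CPM in trb45 clf29 replicates 1 and 2 and the unnumbered library. All 3 trb45 clf29 libraries were far below all trb45 libraries, and the level fell by 6.50 on the log2 scale (SE 0.30, edgeR adjusted p = 9.92e-10). TRB5 (AT1G72740) had 4.34, 1.79 and 3.37 CPM in trb45 and 1.12, 1.72 and 1.15 CPM in trb45 clf29, against a mean of 17.2 CPM in WT. TRB4 (AT1G17520) had 3.05, 1.35 and 2.46 CPM in trb45 and 1.24, 1.31 and 1.25 CPM in trb45 clf29, against 5.51 CPM in WT. The remaining RNA of both mutated TRB genes was thus lower in trb45 clf29 than in trb45, by −1.27 for TRB5 (SE 0.25, edgeR adjusted p = 0.00172) and −0.87 for TRB4 (SE 0.23, edgeR adjusted p = 0.00967) on the log2 scale. For TRB4 the call was lost without trb45 replicate 1 (edgeR adjusted p = 0.0576) and in the fit of the 6 libraries alone (edgeR adjusted p = 0.0501).

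Total counts were 45519206 to 54100770 in trb45 and 53545914 to 53682961 in trb45 clf29, so that a floor of 3 counts per library equalled 0.0519 to 0.0655 CPM (counting error only). Summed levels of 5 leaf mesophyll markers were 83200 to 95700 CPM in trb45 and 97400 to 105000 CPM in trb45 clf29. Anther and tapetum markers summed to 17.3 to 21.8 CPM in trb45 and 17.7 to 18.1 CPM in trb45 clf29, with CYP703A2 and ACOS5 at 0 in all 6 libraries. Markers of dividing cells summed to 85.1 to 112 CPM and 73.5 to 88.1 CPM, and 3 root markers to 0.294 to 0.786 CPM and 0.704 to 0.957 CPM. In bulk leaves, fewer cells of a type and less RNA per cell cannot be told apart.

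Of 19138 genes tested, 5829 (30.5%) passed an edgeR adjusted p of 0.05, with 3018 higher (15.8%) and 2811 lower (14.7%) in trb45 clf29. The counts of list members below are to be read against these shares. Most changes were small, with a median absolute log2 fold change of 0.456 among these genes. A log2 fold change of at least 1 in size was reached by 975 of them (5.09% of the genes tested), 555 higher and 420 lower. The values of 7512 genes (39.3%) did not overlap between the 3 and 3 libraries, among them 5221 of the 5829. The split between higher and lower rests on the scaling: with library size alone the median gene moved by −0.134 and the counts were 1694 higher and 5028 lower. Leaving out trb45 replicate 1 left 1750 genes lower.

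The direction of change followed gene structure. Of 3013 genes with 1 exon, 26.5% were higher and 3.92% lower in trb45 clf29, while of 1355 genes with over 14 exons 2.66% were higher and 50.3% lower. The median log2 fold change fell from 0.197 in the first class to −0.295 in the last. A trend of the same direction was present between clf29 and WT, with medians of 0.179 and −0.205. The libraries of a group differed in it: in genes with over 14 exons, trb45 replicates 1, 2 and 3 deviated from the mean of all libraries by 0.263, −0.0444 and 0.169 log2 CPM, and the trb45 clf29 libraries by −0.199, −0.103 and −0.150. With the trend on exon number and transcript length removed from each library, 2165 of the higher genes (71.7%) and 1607 of the lower genes (57.2%) were still called in the same direction. What produces the trend was not tested.

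**Figure D1:**
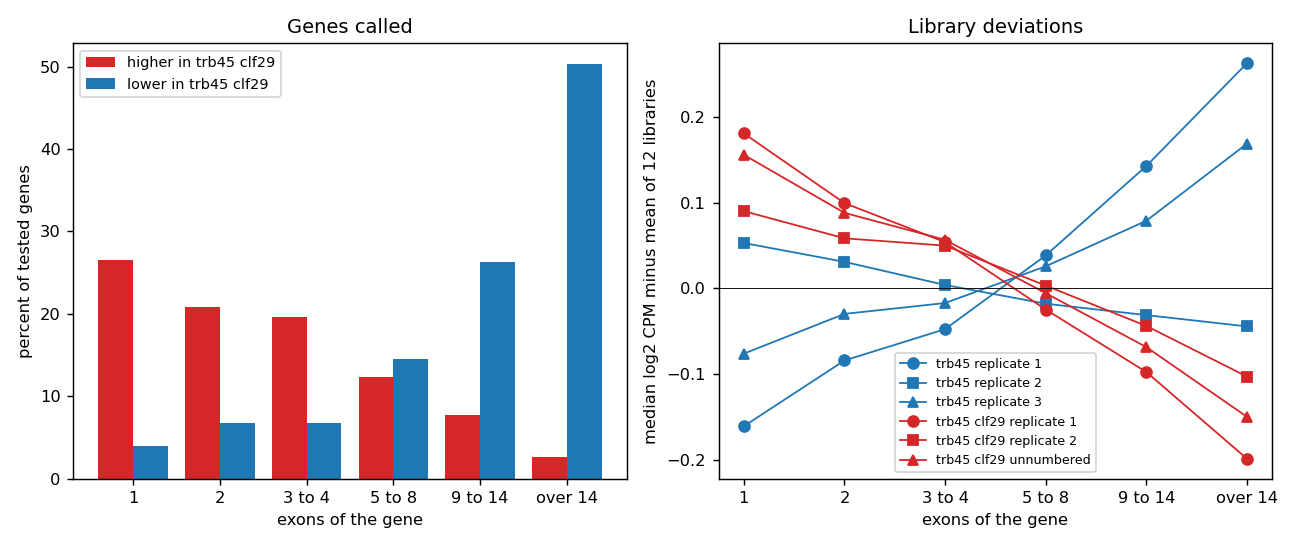
Left, percent of tested genes called higher (red) or lower (blue) in trb45 clf29 against trb45, by the number of exons of the gene (longest transcript). Right, the median deviation of each library from the mean of 12 libraries in log2 CPM, in the same classes. Of genes with over 14 exons 50.3% were lower, and trb45 replicate 2 lies nearer to the trb45 clf29 libraries than trb45 replicates 1 and 3 do.

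The promoters of 6 genes described below are shown next, because TRB proteins bind the telobox and the genes belong to groups that moved together. They are the floral gene SEP3, the neighbouring lipid transfer genes LTP3 and LTP4, and the iron regulators BHLH38, BHLH39 and BHLH100. Each is the 250 bases before the gene start in RefSeq, build TAIR10.1, written 5′ to 3′ on the gene's own strand, with capitals at a telobox (AAACCCTA), a GA repeat (GAGAGAGA), a G-box (CACGTG) or a CArG-box found on either strand. SEP3 lies at chr1:8596124-8596373 (minus strand), LTP3 at chr5:23928704-23928953 (plus) and LTP4 at chr5:23925958-23926207 (minus). BHLH38 lies at chr3:21085246-21085495, BHLH39 at chr3:21087711-21087960 and BHLH100 at chr2:17199455-17199704, all minus.
SEP3: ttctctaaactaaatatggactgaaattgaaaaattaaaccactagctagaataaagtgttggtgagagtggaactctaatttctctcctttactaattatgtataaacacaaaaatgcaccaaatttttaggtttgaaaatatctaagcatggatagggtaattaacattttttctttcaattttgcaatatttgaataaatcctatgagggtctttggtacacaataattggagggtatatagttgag
LTP3: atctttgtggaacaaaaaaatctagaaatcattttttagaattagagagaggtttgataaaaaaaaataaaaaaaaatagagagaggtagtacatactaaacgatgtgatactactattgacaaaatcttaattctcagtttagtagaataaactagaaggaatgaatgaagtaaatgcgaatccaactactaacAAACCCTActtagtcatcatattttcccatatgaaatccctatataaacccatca
LTP4: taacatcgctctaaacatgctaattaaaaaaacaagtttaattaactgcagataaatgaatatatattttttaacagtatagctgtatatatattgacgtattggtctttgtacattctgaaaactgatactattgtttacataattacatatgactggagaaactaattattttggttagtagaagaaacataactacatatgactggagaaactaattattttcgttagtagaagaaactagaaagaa
BHLH38: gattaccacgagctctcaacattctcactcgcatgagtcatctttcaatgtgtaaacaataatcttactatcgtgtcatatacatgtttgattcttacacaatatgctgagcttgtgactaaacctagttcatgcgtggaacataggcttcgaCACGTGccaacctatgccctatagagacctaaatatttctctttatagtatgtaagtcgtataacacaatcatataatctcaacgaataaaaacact
BHLH39: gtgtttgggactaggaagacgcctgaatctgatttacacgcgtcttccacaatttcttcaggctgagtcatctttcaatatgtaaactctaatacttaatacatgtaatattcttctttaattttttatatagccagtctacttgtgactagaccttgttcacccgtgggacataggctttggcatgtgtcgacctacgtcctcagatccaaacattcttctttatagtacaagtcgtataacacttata
BHLH100: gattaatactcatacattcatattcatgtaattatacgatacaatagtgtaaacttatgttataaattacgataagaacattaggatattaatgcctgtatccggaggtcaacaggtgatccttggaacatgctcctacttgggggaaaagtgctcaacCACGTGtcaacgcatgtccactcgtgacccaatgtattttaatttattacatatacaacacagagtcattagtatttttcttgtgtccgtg

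LTP3 holds 1 telobox, and BHLH38 and BHLH100 hold 1 G-box each. The telobox was in 4.47% of all promoters of this length, in 2.20% of those of the higher genes, 4.69% of the lower genes and 3.67% of the genes not called. The G-box was in 6.46% of all promoters, 8.04% of the higher genes, 7.57% of the lower genes and 7.14% of the genes not called. For the GA repeat these shares were 4.89%, 4.04%, 4.36% and 4.87%, and for the CArG-box 2.52%, 2.30%, 3.17% and 2.69%. A match of letters is a description and not a binding site.

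Floral organ identity genes of the MADS family were mostly higher, several of them from near the counting floor. Of 13 tested in the list, 9 passed edgeR as higher in trb45 clf29 and none as lower, as at an unadjusted p under 0.05. The count was 9 in each fit without 1 of the 6 libraries, with the exon trend removed and with DESeq2, and 8 in the fit of the 6 libraries alone. The median log2 fold change of the list was 3.72, against 0 over all genes tested. SEP2, SEP3, SHP1, SHP2, STK, AP1, AP3, PI and AGL6 were near the floor in both trb45 and WT. They passed the expression filter only through the groups with clf29. A lower call was thus not open to them, and the list median follows in large part from the filter. Of the genes tested, a lower call was open only to SEP1, SEP4, AG and FUL. CAL and AGL13, at or near 0 in every group, were not tested. SEP3, a cofactor that links floral MADS proteins into complexes, had 0.0346, 0.0437 and 0 CPM in trb45 and 26.4, 26.7 and 25.5 CPM in trb45 clf29. The libraries of the 2 groups lie far apart, and the ratio of the levels was 1050 (95% counting interval 411 to 3870). AG, which specifies stamens and carpels, had 0.831, 0.874 and 0.855 CPM in trb45 and 69.0, 63.6 and 64.1 CPM in trb45 clf29. All 3 trb45 clf29 libraries were higher, by 6.26 on the log2 scale (SE 0.10, edgeR adjusted p = 9.80e-16).

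Genes that act with AG in ovules and fruit also rose. SHP2, a fruit and ovule gene, went from at most 0.0655 CPM to 2.27, 2.80 and 2.68 CPM, a ratio of 139 (95% counting interval 47.1 to 675). STK, an ovule identity gene, had 0, 0.109 and 0.0349 CPM in trb45 and 1.16, 1.45 and 1.72 CPM in trb45 clf29 (log2 change 4.96, SE 0.52, edgeR adjusted p = 6.55e-06). The petal and stamen genes AP3 and PI reached 1.04 to 1.33 CPM and 1.49 to 1.99 CPM, from at most 0.0519 CPM and 0.105 CPM. SEP4 rose from a higher start, at 14.6, 13.0 and 14.1 CPM in trb45 and 22.3, 20.5 and 24.8 CPM in trb45 clf29 (log2 change 0.69, SE 0.08, edgeR adjusted p = 1.86e-05). SEP1 and AGL6 passed the test at levels under 1 CPM.

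The members that did not pass were SEP2, SHP1, FUL and AP1. FUL, a gene of fruit and inflorescence development, had 1.68, 1.94 and 1.97 CPM in trb45 and 2.37, 1.74 and 1.53 CPM in trb45 clf29, so that the groups overlapped. AP1, which marks floral meristems, had no count in any trb45 clf29 library and at most 0.0437 CPM in trb45, while its mean in clf29 was 1.12 CPM. SEP2 stood at 0.0587 to 0.159 CPM in trb45 clf29 and at a mean of 2.06 CPM in clf29. For 2 members the clf29 effect was smaller in trb45 than in WT background: the difference of log2 fold changes was −1.44 for FUL (SE 0.22, edgeR adjusted p = 0.000916) and −5.17 for SEP2 (SE 1.36, edgeR adjusted p = 0.0292). Over all genes, 1429 (7.47%) passed this test of the difference. SEP1 and SEP2, and SHP1 and SHP2, are close relatives whose reads may be shared.

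**Figure D2:**
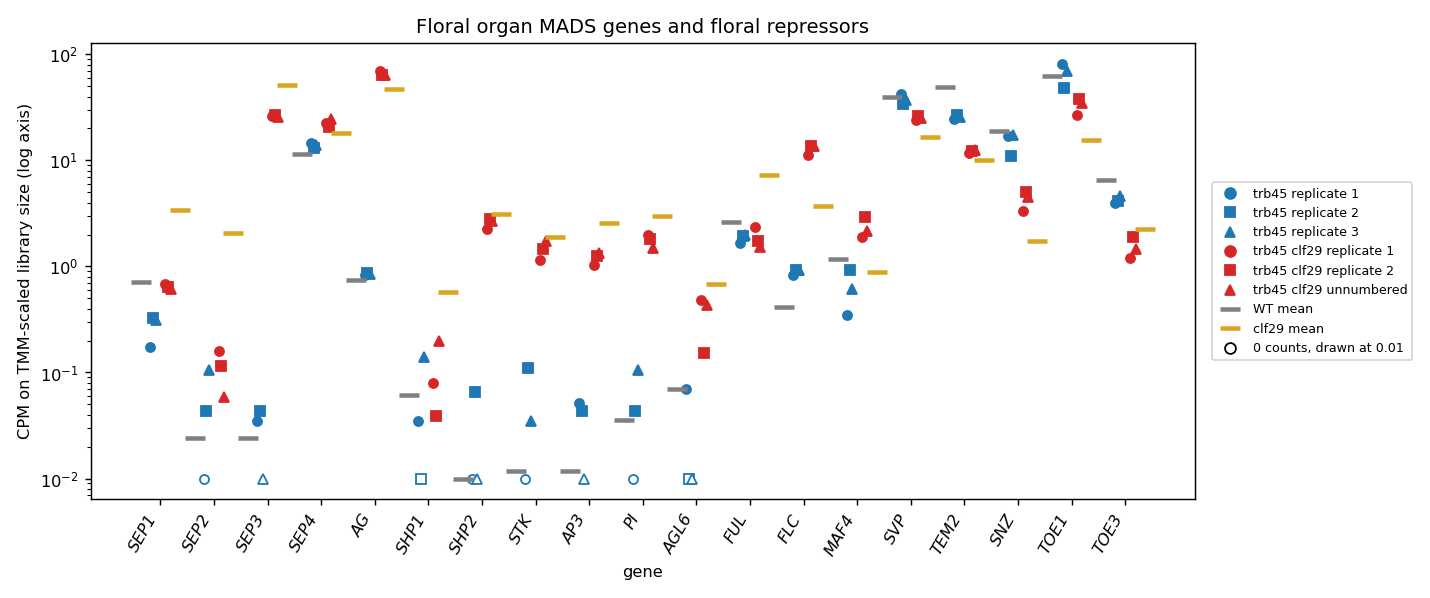
Level of floral organ MADS genes (left) and floral repressors (right) in CPM on a log axis, with each trb45 library (blue) and trb45 clf29 library (red) as a point and the WT and clf29 means (3 libraries each) as dashes. Open points had 0 counts, and these and means of 0 are drawn at 0.01. SEP3 stood at 25.5 to 26.7 CPM in trb45 clf29 and at 0.0437 CPM or less in trb45.

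Repressors of flowering moved in both directions. Of 15 tested, 3 were higher and 8 lower in trb45 clf29, with a median log2 fold change of −0.59. The shares over all genes were 15.8% higher and 14.7% lower. FLC, a MADS repressor controlled by PRC2, had 0.831, 0.917 and 0.925 CPM in trb45 and 11.2, 13.7 and 13.6 CPM in trb45 clf29. Its libraries did not overlap, and it rose by 3.85 (SE 0.23, edgeR adjusted p = 1.44e-08). MAF4, a relative of FLC, had 0.346, 0.917 and 0.611 CPM in trb45 and 1.89, 2.95 and 2.15 CPM in trb45 clf29. It was higher in all 3, by 1.92 (SE 0.34, edgeR adjusted p = 0.000832), and its response was larger than in WT background by 2.35 (SE 0.48, edgeR adjusted p = 0.00724).

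The AP2-type repressors, which are targets of the age-related microRNA miR172, were among the lower genes. SNZ had 16.9, 10.9 and 17.3 CPM in trb45 and 3.35, 5.03 and 4.54 CPM in trb45 clf29, and TOE3 had 3.98, 4.11 and 4.63 CPM and 1.2, 1.89 and 1.47 CPM. Both were lower in every trb45 clf29 library, by −1.81 (SE 0.18) and −1.48 (SE 0.22), with edgeR adjusted p = 5.46e-06 and 0.000204. TOE1, TOE2 and SMZ were lower by −1.0, −1.16 and −1.2. TEM2 (−1.08) and the MADS repressor SVP (−0.59) also fell, and MAF3 (−0.50) did so with a call lost in 3 of the fits without 1 of the 6 libraries. AP2, a floral homeotic gene of the same family, was higher by 0.33 and was not called with library size alone (edgeR adjusted p = 0.122).

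SVP, TEM2, SNZ and TOE1 fell less in trb45 than in WT background, with differences of 0.66, 1.22, 1.64 and 1.02. In SNZ the WT mean was 19.0 CPM and the clf29 mean 1.74 CPM, so that trb45 clf29 (mean 4.31 CPM) stood above clf29.

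Activators of flowering also split. SPL4, a flowering activator of the age pathway, had 1.78, 1.59 and 1.76 CPM in trb45 and 4.98, 6.89 and 6.26 CPM in trb45 clf29, a rise of 1.81 (SE 0.16, edgeR adjusted p = 1.37e-06). SPL9 and SPL15, which promote the adult phase and flowering, were lower by −0.86 and −0.81 in trb45 clf29. In WT background SPL15 rose with clf29 by 1.17, and the difference was −1.98 (SE 0.27, edgeR adjusted p = 0.000370). SOC1, an integrator of flowering signals, had 10.3, 9.30 and 12 CPM in trb45 and 8.27, 7.25 and 8.37 CPM in trb45 clf29. It fell by 0.40 here and rose by 0.84 in WT background, a difference of −1.25 (SE 0.14, edgeR adjusted p = 6.77e-05).

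FT, which encodes the mobile flowering signal, had 0.761, 0.480 and 0.402 CPM in trb45 and 0.957, 1.02 and 1.19 CPM in trb45 clf29. It was higher by 0.94 (SE 0.32, edgeR adjusted p = 0.0341), a call lost in 4 of the fits without 1 of the 6 libraries. Of 8 other flowering MADS genes tested, 4 were higher and 1 (SOC1) lower, and AGL42 rose from at most 0.0692 CPM to 1.14, 0.791 and 0.959 CPM. AGL24 rose by 0.43 (SE 0.08, edgeR adjusted p = 0.000851), and AGL17 and AGL71 passed at levels of at most 0.309 CPM. AGL17, AGL42 and AGL71 were near 0 in trb45 and had WT means of at most 0.18 CPM. These genes passed the expression filter only through the groups with clf29, so that a lower call was not open to them. TFL1, an inflorescence gene, passed narrowly (edgeR adjusted p = 0.0467) at 0.0391 to 0.116 CPM, near the counting floor. It was near 0 in trb45 and passed the expression filter only through the clf29 group (mean 0.405 CPM), so a lower call was not open to it. The TFL1 call was lost with library size alone, no filter, DESeq2, the exon trend removed and without 4 of the 6 libraries, each left out in turn.

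Meristem and leaf polarity genes changed at different levels. The class I KNOX genes STM and KNAT1, which keep meristem cells undifferentiated, were at or near 0 in trb45 and at 0.309 to 0.359 CPM and 0.231 to 0.239 CPM in trb45 clf29. The ratios were 27.3 (95% counting interval 7.19 to 232) and 18.9 (4.87 to 162). Of the 8 genes in the list 4 were tested and 4 were not, and 3 of the 4 tested were higher, with KNAT6. STM and KNAT1 were near 0 in WT too and passed the expression filter only through the groups with clf29, so that a lower call was not open to them. Without trb45 replicate 3 the count of higher genes was 1. It was 2 without trb45 replicate 1 or trb45 clf29 replicate 2, and in the fit of the 6 libraries alone. In the polarity list, 5 of 11 genes were lower and 2 higher, against 14.7% lower and 15.8% higher over all genes. In this list 3 were lower without trb45 replicate 3 or trb45 clf29 replicate 2, and in the fit of the 6 libraries alone. The class III HD-ZIP genes REV, PHB and PHV, which set upper leaf identity, were lower by −0.78, −0.73 and −1.06. REV had 46, 36.3 and 39.2 CPM in trb45 and 23.5, 23.2 and 24.0 CPM in trb45 clf29, which was near its WT and clf29 means of 22.1 and 23.0 CPM, and the difference between backgrounds was −0.84 (SE 0.13, edgeR adjusted p = 0.00100). YAB2 and KAN1 were higher by 0.43 and 0.34, and FIL and YAB3 lower by −0.21 and −0.19. KAN1 lost its call with library size alone and without trb45 replicate 1, trb45 replicate 3 or the unnumbered library. FIL and YAB3 lost theirs without trb45 replicate 3 or trb45 clf29 replicate 2, and YAB3 also without the unnumbered library and with the exon trend removed. In the fit of the 6 libraries alone KAN1, FIL and YAB3 were not called. Among the markers of dividing cells, 3 of 11 were lower (1 without trb45 replicate 2 or trb45 clf29 replicate 2), against 14.7% over all genes. In this list the growth regulator ANT had 7.99, 8.04 and 7.61 CPM in trb45 and 5.52, 4.59 and 4.44 CPM in trb45 clf29.

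Genes of the iron deficiency response fell as a group. Of 19 tested, 14 were lower and 2 higher in trb45 clf29, with a median log2 fold change of −1.0, and 13 to 15 were lower in each fit without 1 of the 6 libraries. BHLH100, a regulator induced when iron is scarce, had 26.1, 40.1 and 31.9 CPM in trb45 and 4.07, 2.80 and 3.78 CPM in trb45 clf29. All 3 trb45 clf29 libraries were lower, by −3.20 (SE 0.15, edgeR adjusted p = 1.38e-09). Its relatives BHLH38 and BHLH39 fell from 25.8, 43.1 and 33.4 CPM to 6.62, 3.28 and 4.66 CPM and from 27.5, 47.5 and 35.6 CPM to 6.48, 3.28 and 4.66 CPM. BHLH38 and BHLH39 are neighbouring copies whose reads may be shared.

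Starting levels differed between the backgrounds. The WT means of BHLH38, BHLH39 and BHLH100 were 10.7, 11.1 and 6.79 CPM, below the trb45 means of 34.1, 36.9 and 32.7 CPM. Their clf29 means were 0.293, 0.159 and 0.0632 CPM, below the trb45 clf29 means of 4.85, 4.80 and 3.55 CPM. The clf29 effect was smaller in trb45 background by 2.38, 3.17 and 3.49 (edgeR adjusted p = 0.00249, 0.000639 and 0.000149). In the clf29 libraries 3 counts equalled 0.0562 to 0.058 CPM. The sizes of the differences for BHLH39 and BHLH100 thus rest on few counts in clf29. In the list, 7 of 19 genes passed this test, all in the positive direction, of which 5 fell less than in WT background and 2, NAS1 and NAS3, were higher in trb45 clf29 and not called in clf29 against WT.

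Several iron uptake and sensing genes also fell. FRO3, a ferric reductase, had 105, 142 and 120 CPM in trb45 and 47.9, 46 and 50.6 CPM in trb45 clf29, and BTS, an E3 ligase that restrains the response, had 174, 180 and 174 CPM and 71.8, 83.2 and 83.7 CPM. Both were lower in each trb45 clf29 library, by −1.34 and −1.15 (edgeR adjusted p = 1.14e-06 and 4.35e-08). The reductase FRO2 (−1.0), the transporter IRT1 (−2.87, at most 0.279 CPM in trb45 clf29), NAS4 (−1.02), ORG1 (−1.60) and the listed loci AT1G47400 (−0.47), AT1G47395 (−0.71), AT2G30766 (−0.63) and AT1G74770 (−2.32) were also called lower. The call of AT1G47400 was lost without trb45 replicate 2 and without the unnumbered library. The regulators FIT (−0.61) and PYE (−0.32) and the transporter OPT3 (−0.1) were not called, and their groups overlapped. FIT was called lower without trb45 replicate 2, and PYE without trb45 replicate 1 and with library size alone.

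NAS1 and NAS3, which make the metal chelator nicotianamine, went the other way. NAS1 had 19.2, 17.5 and 17.1 CPM in trb45 and 39.6, 70.3 and 56.0 CPM in trb45 clf29, and rose by 1.62 (SE 0.17, edgeR adjusted p = 5.88e-06). The iron storage ferritin FER4 had 6.25, 5.77 and 5.46 CPM in trb45 and 23.8, 22.7 and 22.5 CPM in trb45 clf29. It was higher in all 3 libraries, by 1.98 (SE 0.08, edgeR adjusted p = 1.29e-10), and FER3 by 0.45. Of the most counted genes with a change of at least 1, AT3G16670 had 343, 504 and 431 CPM in trb45 and 66.7, 69.3 and 73.9 CPM in trb45 clf29, and AT3G16660 on the neighbouring locus code fell by 2.88.

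**Figure D3:**
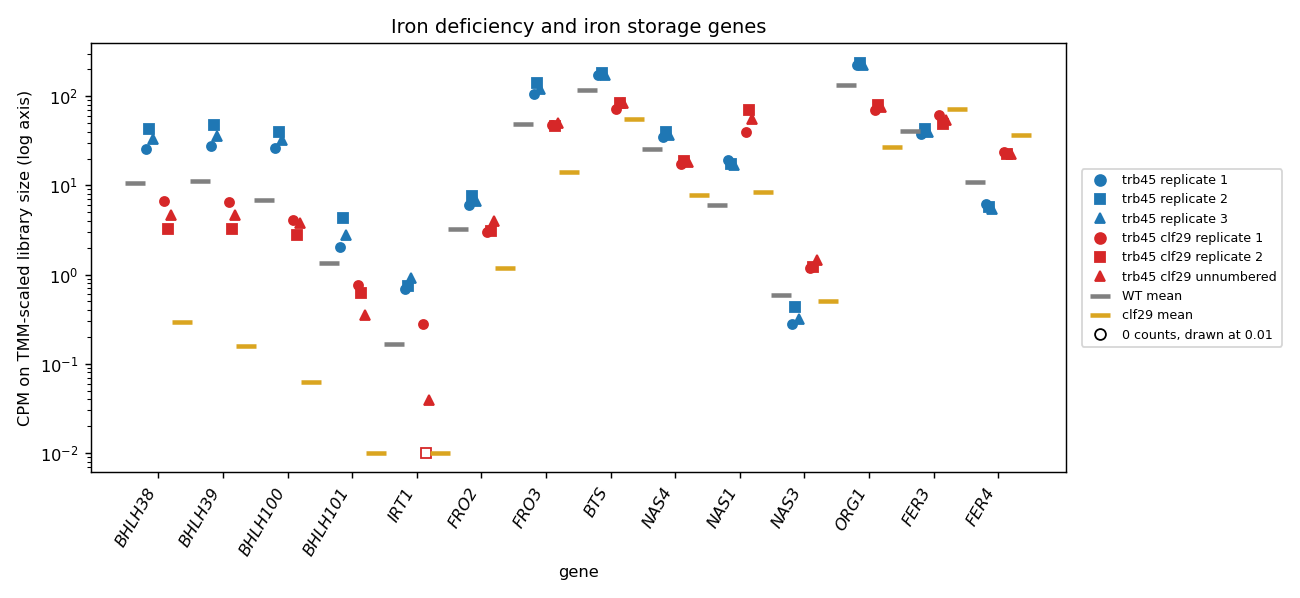
Level of iron deficiency and iron storage genes in CPM on a log axis, with each trb45 library (blue) and trb45 clf29 library (red) as a point and the WT and clf29 means (3 libraries each) as dashes, with values of 0 drawn at 0.01. BHLH100 stood at 26.1 to 40.1 CPM in trb45 and 2.80 to 4.07 CPM in trb45 clf29, while its clf29 mean was 0.0632 CPM.

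Surface lipid and transport genes were among the largest increases. LTP3, a lipid transfer protein gene, had 0.208, 0.328 and 0.279 CPM in trb45 and 15.3, 30.5 and 23.3 CPM in trb45 clf29, a rise of 6.41 (SE 0.32, edgeR adjusted p = 1.58e-09). Its neighbour LTP4 went from at most 0.0349 CPM to 4.23, 8.01 and 6.36 CPM, a ratio of 500 (95% counting interval 138 to 4140). In the lipid transfer list 3 of 6 genes were higher, LTP5 by 0.34. Of 13 cuticle genes, 8 passed edgeR as higher and none as lower (8 and 0 at an unadjusted p under 0.05 and by DESeq2), and 6 to 9 were higher in the fits without 1 of the 6 libraries. CER4, an alcohol-forming reductase of wax synthesis, had 2.09, 1.59 and 1.69 CPM in trb45 and 12.7, 13.5 and 14.7 CPM in trb45 clf29 (log2 change 2.92, SE 0.12, edgeR adjusted p = 3.55e-10). KCS1 and KCS6, enzymes of very-long-chain fatty acid elongation, rose by 0.71 and 0.53.

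Several genes outside these lists also rose from low levels. ATHB54, a homeodomain gene, had 0.242, 0.0874 and 0.14 CPM in trb45 and 26.9, 25.8 and 27.3 CPM in trb45 clf29 (log2 change 7.35, SE 0.14, edgeR adjusted p = 1.19e-14). The sugar transporter gene SWEET10 reached 13.0, 7.35 and 10.4 CPM from at most 0.175 CPM, and the amino acid transporter gene UMAMIT14 reached 8.63, 6.19 and 7.38 CPM from at most 0.131 CPM. TCP12, a TCP-domain gene of shoot branching control, rose from at most 0.0346 CPM to 1.36, 1.33 and 1.21 CPM, a ratio of 69.7 (95% counting interval 23.5 to 341). AT3G58250, a TRAF-like gene, had no count in trb45 and 2.01, 1.72 and 1.58 CPM in trb45 clf29, at least 31.3-fold higher. No gene with a mean of at least 1 CPM in trb45 was at the floor in trb45 clf29. Among highly counted genes, APX1, a cytosolic ascorbate peroxidase, rose by 1.07, GASA1, a gibberellin-regulated gene, by 1.94, and XTH7, a cell wall enzyme gene, by 1.2.

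Some genes of the cold and phosphate responses fell. COR15A, which encodes a chloroplast protein that protects membranes in the cold, had 28.5, 22.5 and 30.7 CPM in trb45 and 4.78, 5.38 and 4.30 CPM in trb45 clf29. It fell by 2.5 (SE 0.15, edgeR adjusted p = 1.01e-08) and COR15B by 2.71. Of 10 cold-regulated genes tested, 5 were lower and 1 higher, against 14.7% lower and 15.8% higher over all genes. The cold regulators CBF2 and CBF3 passed at low levels, 0.0391 to 0.199 CPM in trb45 clf29 for CBF2, and the call of CBF3 was lost without trb45 replicate 1 (edgeR adjusted p = 0.0955). PHT1;4, a phosphate transporter gene, had 4.84, 5.42 and 5.78 CPM in trb45 and 0.957, 1.00 and 1.41 CPM in trb45 clf29, a fall of −2.25 (SE 0.24, edgeR adjusted p = 7.55e-06). Of 6 phosphate starvation genes tested, 2 were lower, 1 was higher and 3 were not called, where 30.5% of all genes were called. The purine permease gene PUP4 and the phloem protein gene PP2-A10 were lower by −2.31 and −2.46. Of 19 seed maturation genes 4 were tested and 15 were not. CRU1 and DOG1 were lower by −1.40 and −1.70 at levels under 2 CPM, while LEC2 (0.63) and ABI5 (0.27) were not called.

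Salicylic acid and other defence genes differed between the trb45 clf29 libraries. PR1, a marker of salicylic acid signalling, had 0.104, 0.0437 and 0.0698 CPM in trb45 and 0.219, 9.41 and 4.07 CPM in trb45 clf29. PR2, a glucanase gene, had 5.02, 2.99 and 3.70 CPM and 4.84, 40.6 and 25.3 CPM. In both genes trb45 clf29 replicate 1 was the low library, and for PR2 it lay within the trb45 range. The same order held for PAD3, the last enzyme of camalexin synthesis, at 0.239, 7.21 and 4.79 CPM in trb45 clf29, and for LURP1 at 5.28, 56.2 and 31.5 CPM. PCR1 had 0.0199 CPM in replicate 1, below every trb45 library, and 16.5 and 8.81 CPM in the others. TAT3, a jasmonate-inducible aminotransferase gene, had 0.239, 17.1 and 10.4 CPM.

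Of 13 salicylic acid genes tested, 6 passed edgeR as higher and none as lower (6 and 0 at an unadjusted p under 0.05, 5 and 0 by DESeq2). Without trb45 clf29 replicate 1 the count was 11, without replicate 2 it was 3, without trb45 replicate 2 it was 9, and without the unnumbered library or trb45 replicate 3 it was 4. PR5, an antifungal protein gene, did not overlap, with 10.3, 11.3 and 10.3 CPM in trb45 and 17.3, 23.1 and 19.2 CPM in trb45 clf29 (log2 change 0.90, SE 0.10, edgeR adjusted p = 1.17e-05). EDS5, SAG101 and WRKY70 each lost the call in at least 1 of these fits.

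Senescence regulators were higher in all 3 trb45 clf29 libraries. NAP, a NAC regulator of leaf senescence, had 0.242, 0.218 and 0.594 CPM in trb45 and 3.67, 4.53 and 4.40 CPM in trb45 clf29, and rose by 3.54 (SE 0.29, edgeR adjusted p = 4.75e-07). Its WT and clf29 means were 2.89 and 1.67 CPM, so that trb45 was the low group, and the difference between backgrounds was 4.34 (SE 0.37, edgeR adjusted p = 6.32e-06). ORE1, another NAC regulator, had 0.0346, 0.0437 and 0.0698 CPM in trb45 and 0.757, 0.617 and 0.704 CPM in trb45 clf29. NYC1, a chlorophyll b reductase, rose by 1.07, and 5 of 9 senescence genes passed edgeR as higher with none as lower (7 and 0 at an unadjusted p under 0.05 and by DESeq2). SAG13, one of these 5, had 1.24, 6.77 and 4.83 CPM in trb45 clf29.

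Aliphatic glucosinolate genes, which make methionine-derived defence compounds, responded differently in the 2 backgrounds. Of 14 tested, 10 passed edgeR as higher in trb45 clf29 against trb45 and none as lower (10 and 0 at an unadjusted p under 0.05, 9 and 0 by DESeq2), while 6 passed as lower in clf29 against WT and the other 8 were not called (34.7% of all genes were called in that comparison). The difference passed for 9, all positive. CYP79F1, which starts the core pathway, had 171, 142 and 163 CPM in trb45 and 233, 332 and 295 CPM in trb45 clf29, a rise of 0.85 (SE 0.11, edgeR adjusted p = 5.11e-05). Its WT and clf29 means were 152 and 95.9 CPM, and the difference was 1.52 (SE 0.15, edgeR adjusted p = 2.98e-05). BCAT4, an aminotransferase of chain elongation, had 49.8, 36.3 and 42.9 CPM and 58.9, 103 and 77.3 CPM, with a difference between backgrounds of 2.00 (SE 0.26, edgeR adjusted p = 0.000243). MAM3, another chain elongation gene, had 0.277, 0.306 and 0.244 CPM and 1.85, 1.93 and 2.03 CPM. Replicate 1 was the lowest trb45 clf29 library in CYP79F1, BCAT4 and MAM3, but by far less than in PR1, PAD3 and PCR1 above. In MAM3 the 3 libraries lay close together. Without trb45 clf29 replicate 1, or without trb45 replicate 1, 10 of the 14 genes were higher. The count was 8 without trb45 replicate 2, trb45 replicate 3, trb45 clf29 replicate 2 or the unnumbered library, and in the fit of the 6 libraries alone. With library size alone, 7 were higher.

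**Figure D4:**
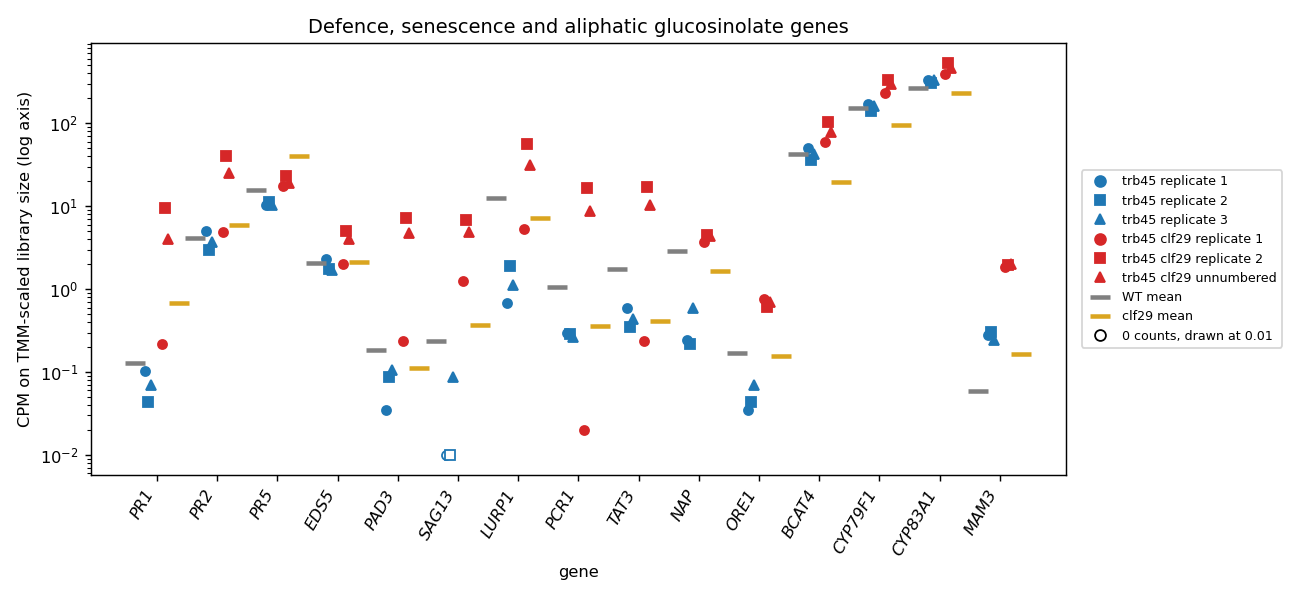
Level of defence and other genes (PR1 to TAT3, among them SAG13 of the senescence list), senescence regulators (NAP, ORE1) and aliphatic glucosinolate genes (BCAT4 to MAM3) in CPM on a log axis. Points are trb45 (blue) and trb45 clf29 (red) libraries, and dashes are WT and clf29 means (3 libraries each). In PR1, PAD3 and PCR1 trb45 clf29 replicate 1 (red circle) lies apart from the other 2 libraries of its group, while NAP has 3.67 to 4.53 CPM in all 3.

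Jasmonate genes also differed between the backgrounds. VSP1, a storage protein gene induced by jasmonate, had 0.588, 1.22 and 0.716 CPM in trb45 and 0.837, 1.06 and 1.37 CPM in trb45 clf29, and the groups overlapped. Its means were 0.278 CPM in WT and 38.6 CPM in clf29, and the difference between backgrounds was −6.71 (SE 0.78, edgeR adjusted p = 0.000112). VSP2 rose in trb45 clf29 by 2.36, less than in WT background by −1.54. AOS, an enzyme of jasmonate synthesis, had 131, 125 and 122 CPM and 124, 161 and 135 CPM, while it went from 158 to 54 CPM between WT and clf29, a difference of 1.70 (SE 0.12, edgeR adjusted p = 4.08e-07). AOC2 in the same pathway fell by 0.64, PDF1.2, a defensin gene, by 2.46, and MYC2, a master regulator of the response, rose by 0.35. Of 11 jasmonate genes tested, 2 were higher and 2 lower, which is near the share of 30.5% called over all genes.

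In the remaining lists the called changes were mostly small, and over all genes 15.8% were higher and 14.7% lower. Of 18 photosynthesis genes 8 passed edgeR as higher and none as lower (13 and 0 at an unadjusted p under 0.05, 9 and 0 by DESeq2), but 2 were higher with library size alone, 3 with the exon trend removed, 3 without trb45 replicate 1, 3 without trb45 clf29 replicate 1, 4 without trb45 replicate 3 and 13 without trb45 replicate 2. Of 9 clock genes 5 were lower, but 1 was without trb45 replicate 1, trb45 replicate 3, trb45 clf29 replicate 1 or the unnumbered library. Of 17 anthocyanin genes 6 were lower and 1 higher (3 lower without trb45 replicate 1 or 3, and 2 without trb45 clf29 replicate 2), with the bHLH regulators TT8 and GL3 at −0.74 and −1.21 and the repressor MYBL2 at 0.55. TT8 and GL3 lost their calls without trb45 replicate 1, trb45 replicate 3 or trb45 clf29 replicate 2, and GL3 also without the unnumbered library. Of 7 genes tested of PRC2 and its VEL partners, EMF2 was lower by −0.56 (SE 0.10, edgeR adjusted p = 0.000604) and VRN5 was higher by 0.21, a call lost with library size alone (edgeR adjusted p = 0.363), with the exon trend removed, in the fit of the 6 libraries and without trb45 replicate 1, trb45 replicate 3, trb45 clf29 replicate 1 or the unnumbered library. None of 7 PRC1 genes and 0 of 3 other TRB genes (TRB1, TRB2, TRB3) passed edgeR or DESeq2, with 2 and 0 at an unadjusted p under 0.05. Of all 19138 genes tested, 30.5% passed edgeR and 7977 had an unadjusted p under 0.05, so that such small counts do not set these lists apart.

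Comparison of the clf29 effect in both backgrounds used no shared libraries. Of the 5829 genes called in trb45 background, 3292 were also called between clf29 and WT. That is 56.5% of the first list, where 34.7% of all genes tested were called between clf29 and WT. It is 49.5% of the second list, where 30.5% of all genes were called in trb45 background. The sign was the same in 94.9% of the 3292, with 1673 higher and 1450 lower in both. The exon trend had the same direction in both comparisons. With it removed, 2874 genes were called in both, 94.4% of them with the same sign. Across genes the log2 fold changes had a Pearson r of 0.552 and a Spearman rho of 0.569, given as a description because genes are not independent replicates. Of the 3123 genes of the same sign, 257 passed the test of the difference, 215 with a smaller and 42 with a larger effect in trb45 background. Of the 2537 genes called in trb45 background alone, 366 passed it, so for most of them a difference between backgrounds was not shown.

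The difference was positive in 796 genes and negative in 633, and without WT replicate 3 or without the unnumbered library 949 genes passed. AT4G13575 had 0.363, 0.153 and 0.244 CPM in trb45 and 6.14, 9.53 and 7.26 CPM in trb45 clf29, against means of 17.2 CPM in WT and 16.0 CPM in clf29. The trb45 libraries were thus far below the other 3 groups, with trb45 clf29 between trb45 and the WT and clf29 means, and the difference between backgrounds was 4.97 (SE 0.29, edgeR adjusted p = 7.19e-08). AT3G01345 had a mean of 352 CPM in WT and at most 0.528 CPM in each of the 6 libraries. AT5G15500, an ankyrin repeat gene, went from at most 0.0698 CPM in trb45 to 2.01, 2.04 and 2.13 CPM in trb45 clf29, and its clf29 mean was 0.152 CPM. AT1G62500 and AT5G33370 had clf29 means of 8.06 and 19.2 CPM and at most 0.0797 and 3.65 CPM in trb45 clf29. AT1G62500 was called lower in trb45 clf29, a call lost in 5 of the fits without 1 of the 6 libraries.

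**Figure D5:**
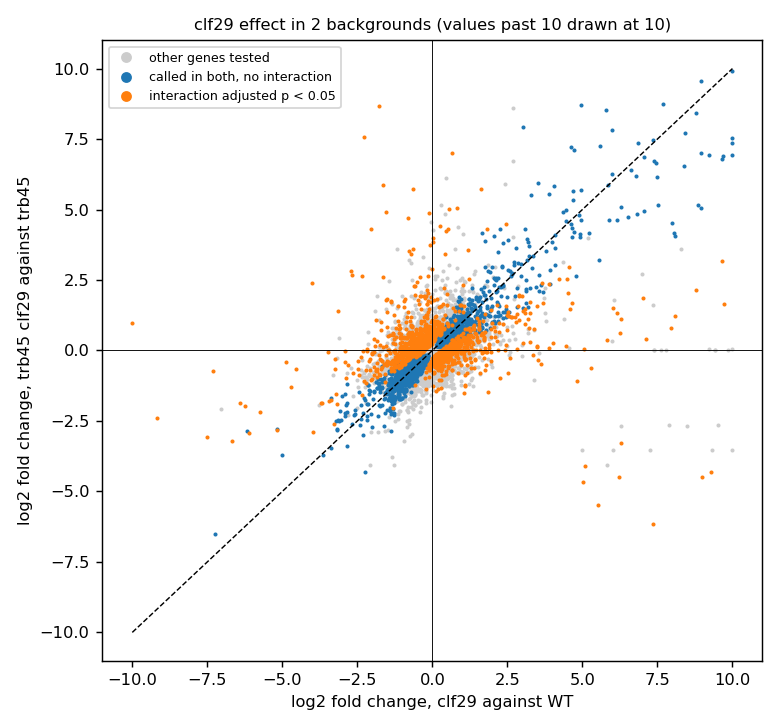
Log2 fold change of each tested gene between trb45 clf29 and trb45 (vertical) against that between clf29 and WT (horizontal), with equal effects on the dashed line. Blue genes were called in both comparisons with no interaction, and the 1429 orange genes passed the test of the difference.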

How the data were processed

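RNA of mature leaves was measured in 12 libraries, 3 for each genotype, of which 6 enter the main comparison. The values are whole-number counts per gene, deposited by the authors without scaling. HISAT2, DESeq2 and the TAIR10 build are named in the submitters' processing notes, while the counting program and its annotation are not given in the sources used here, so reads of near-identical or overlapping genes may be shared between them. Samples were grouped by the genotype in their labels and columns were matched by name. The unused value columns were 0.

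The tests used edgeR 4.0.16 (R 4.3.3): filterByExpr (minimum count 10, minimum total 15; 19138 of 28775 genes kept), TMM factors (0.935 to 1.07) and a quasi-likelihood fit of 4 group means to all 12 libraries, with Benjamini-Hochberg adjustment over the genes tested and a threshold of 0.05. The difference between backgrounds is the contrast of trb45 clf29 minus trb45 less clf29 minus WT. The SE is the fold change divided by the square root of F. Levels are CPM on TMM-scaled library sizes, with fold changes on the log2 scale. Where each trb45 library had 3 counts or fewer, a ratio of levels with a 95% counting interval is given, or, at 0 counts, a lower bound against 3 counts per library. The fit was tested on simulated data.

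Genes were named by a rule: all listed genes, the 15 largest changes each way with a mean of at least 1 CPM and no overlap, the 10 most counted with a change of at least 1, the 15 highest genes at the floor in 1 group, and the 8 largest differences between backgrounds each way. Of these the text names a part, and KNAT6, AGL71 and others at low levels come from the lists. Members and lists were chosen with earlier results of these data known. Gene names, exons and promoters came from RefSeq TAIR10.1, in which 27996 of 28775 locus codes matched, and a hand-written list gave TRB4 (AT1G17520) and TRB5 (AT1G72740). Alternatives were RLE factors, library size alone, no filter, a mean of 10 counts, DESeq2 1.42.0, stricter thresholds, a replicate block, each library left out, thinning to the shallowest library, leaving out the 10 most counted genes, and a fit of the 6 libraries. An offset for exon number and transcript length, and the gene lists without each library, were chosen after seeing the data. Replicate numbers were not taken to pair the samples, since no label says so and the correlations were not all above 0.1: same-numbered trb45 and trb45 clf29 libraries deviated with correlations of −0.209 and −0.255, and WT and trb45 libraries with 0.273, 0.322 and 0.0273 for numbers 1 to 3.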

Additional observations from a re-analysis of the deposited data

Results flagged for a closer look

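Of the genes tested, 1429 (7.47%) had a clf29 effect that differed between the trb45 and WT backgrounds at an edgeR adjusted p of 0.05. The values below are the log2 fold change in trb45 background minus that in WT background, each past that threshold, with 3 libraries in each of 4 groups.

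The remaining RNA of TRB5 had a difference of −1.29. Among flowering and floral genes it was −5.17 for SEP2, −1.44 for FUL, −1.25 for SOC1, −1.19 for SPL9 and −1.98 for SPL15, and 2.35 for MAF4, 0.66 for SVP, 1.22 for TEM2, 1.64 for SNZ and 1.02 for TOE1. Polarity genes had −0.84 for REV, 0.31 for FIL and −0.31 for YAB3.

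Iron genes had 2.38 for BHLH38, 3.17 for BHLH39, 3.49 for BHLH100, 1.15 for NAS1, 2.15 for NAS3, 0.67 for AT1G47395 and 0.74 for ORG1. AT3G16660 had 1.1 and AT3G16670 had 0.67.

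Among defence, senescence and other genes the differences were 6.38 for PAD3, 6.36 for SAG13, 5.5 for LURP1, 6.46 for PCR1, 6.36 for TAT3, 4.34 for NAP, 3.83 for ORE1 and −0.48 for PR5. For PAD3, LURP1, PCR1 and TAT3 the level in trb45 clf29 replicate 1 was far below that in the other libraries of its group (0.239, 5.28, 0.0199 and 0.239 CPM), and the part of that library in the difference was not tested. Glucosinolate genes had 2.0 for BCAT4 and 1.52 for CYP79F1. Jasmonate genes had −6.71 for VSP1, −1.54 for VSP2, 1.84 for AOC2 and 1.7 for AOS. The anthocyanin regulators GL3 and MYBL2 had −2.29 and 0.99.

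Other genes had −1.05 for GASA1, 4.97 for AT4G13575, −9.54 for AT1G62500, −5.63 for AT5G33370, 4.08 for AT5G15500 and 12.71 for AT3G01345. AT3G01345 was low in trb45, clf29 and trb45 clf29, so its value rests on the WT mean of 352 CPM.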

How the results depend on the processing

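The 5829 calls became 5826 with RLE factors, 6164 with DESeq2, 4199 with the 6 libraries alone and 4914 with the exon and length offset. With library size alone 1694 genes were higher and 5028 lower. With the replicate number as a block (without the unnumbered library) there were 3115 calls, 1790 higher and 1325 lower, 657 interaction genes and 1912 genes called in both backgrounds; the numbers were not taken to pair the samples. An adjusted p under 0.01 gave 3107, 1764, 1343, 585 and 1548 in the same order, and a log2 fold change of at least 1 gave 975, 555, 420, 439 and 510. Without 1 library the calls ran from 3944 to 7122, the higher genes from 2099 to 3743, the lower genes from 1750 (without trb45 replicate 1) to 3379, the interaction genes from 949 (without WT replicate 3 or the unnumbered library) to 1926, and the genes called in both backgrounds from 2301 to 4279, with 91.6% to 96.5% of the same sign. Where 1 library was left out its group had 2 libraries and the spread came from all groups.

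Among 127 named genes, 2662 of 2782 alternative values kept call and direction, 105 lost the call, 7 gained it and 8 changed sign. Of the 117 called, 92 kept the call in every alternative run. The sign changes were in genes not called: FUL was −0.13 with library size alone, −0.02 after thinning and −0.19 to 0.14 without 1 library, SHP1 −0.06 with the replicate block and −0.06 to 2.31 without 1 library, AOS −0.06 with the exon and length offset, and OPT3 −0.21 to 0.05 without 1 library. The cause was not tested. Genes under about 0.0655 CPM are at the limit of the depth.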

Other observations

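Gene classes by RefSeq product name, not described above, were counted with the same calls. Of 128 cytochrome P450 genes tested, 45 were higher and 16 lower in trb45 clf29, with a median log2 fold change of 0.21, and 27 of the 32 that differed between the backgrounds did so in the positive direction. Of 316 ribosomal protein genes, 24 were higher and 7 lower in trb45 clf29 (median 0.06). In clf29 against WT 154 of them were higher and 4 lower (median 0.24), where 3541 of all 19138 genes were higher and 3106 lower. The test of the difference was passed by 21 of the 316, 17 of them negative, and by 7.47% of all genes. For most ribosomal protein genes a difference between the backgrounds was thus not shown. Of 52 peroxidase genes 16 were higher and 4 lower, and of 98 genes of pectin metabolism 26 were higher and 10 lower. Of 10 defensin genes 4 were lower and the other 6 were not called. Over all genes 15.8% were higher and 14.7% lower in trb45 clf29 against trb45.

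AT4G36700, a cupin gene, had 4.34, 11.3 and 7.47 CPM in trb45 and 1.26, 1.23 and 0.841 CPM in trb45 clf29 (log2 fold change −2.79, edgeR adjusted p = 1.66e-05). UGT76B1, a glucosyltransferase gene, was at most 0.0437 CPM in trb45 and stood at 0.439, 3.78 and 2.41 CPM in trb45 clf29, with replicate 1 lowest as in the other defence genes.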
